A study of Homo sapiens with 12 samples.

Results

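The ribosome biogenesis factors described here are 40 genes whose products transcribe ribosomal DNA, or fold, modify, cut and export ribosomal RNA with its proteins. They were chosen by name, with earlier results of these data known. Their symbols were matched to Ensembl identifiers in a table of 61487 gene identifiers. All 40 were found, each under a single identifier, and all 40 were among the 16104 genes with enough counts to be tested. By role, 6 belong to the RNA polymerase I system, 4 to the core of the small nucleolar ribonucleoproteins (snoRNPs), 4 are nucleolar chaperones and scaffolds, 12 act on the small subunit and 14 on the large subunit. The study measured RNA in MOLM14, an established human acute myeloid leukemia line, in which every library, controls included, came from cells carrying a doxycycline-inducible short hairpin RNA (shRNA) against RIP140, a nuclear receptor coregulator encoded by NRIP1. All cells grew in serum free of tetracycline. The 4 groups of 3 biological replicates were untreated cells, cells given all-trans retinoic acid (ATRA) at 1 µM for 48 h, cells given doxycycline (DOX) at 50 ng/mL, replaced every other day, and cells given both, called combined here. No library here pairs DOX with a non-targeting shRNA, so effects of the agent and of the shRNA cannot be told apart, and the labels do not say whether the cells are 1 clone. The comparisons ask what ATRA does to these genes, and whether inducing the shRNA changes that.

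A ribosome is assembled largely in the nucleolus. RNA polymerase I transcribes a long precursor RNA there, snoRNPs guide its methylation and pseudouridylation, and a large relay of GTPases, helicases and WD-repeat proteins folds and trims it into the precursors of the small and large subunits. The demand for ribosomes is high in growing cells, and MYC, which binds the E-box CACGTG with its partner MAX, is known to act on many genes of this pathway. In leukemia cells that mature under retinoic acid, growth and ribosome production are known to decline.

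Library totals ran from 2.69 to 19.36 in units of 1e6 counts, and the shallowest library was the third DOX replicate. Levels are given in CPM, read counts per 1e6 counts of the library, after TMM scaling, which corrects library sizes for differences in composition. NRIP1 itself lay between 53.3 and 59.7 CPM in the untreated libraries and between 38.4 and 51.9 in the ATRA libraries. It lay between 15.0 and 19.2 in the DOX libraries and between 15.9 and 20.9 in the combined libraries, below every library without DOX. The summed level of 8 myeloid markers ran from 596 to 626 CPM in untreated, 642 to 701 in ATRA, 719 to 797 in DOX and 603 to 815 in combined libraries, with CD14 at or under 0.321 CPM. Of lymphoid markers 6 summed to between 11.9 and 25.7 CPM, mostly NKG7, and CD3E had no counts; 5 erythroid and megakaryocyte markers summed to at most 0.768 CPM, and PF4 had none. The 5 fibroblast and epithelial markers, of which EPCAM had no counts and KRT18 and KRT8 made up nearly all, summed to 44.3 to 53.4 CPM in untreated, 32.4 to 38.2 in ATRA, 60.1 to 72.0 in DOX and 39.8 to 54.8 in combined libraries. The share of counts from mitochondrial ribosomal RNA was 2.54% to 4.60% in untreated, 2.09% to 2.74% in ATRA, 1.02% to 2.18% in DOX and 1.23% to 2.02% in combined libraries. Whether fewer cells of a type or less RNA per cell lies behind a change cannot be told apart in bulk RNA.

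RefSeq promoters, which span 250 bases before to 50 after a gene's start on GRCh38.p14, were found for 34 of the 40 members; NOP58, NOLC1, RRP12, BOP1, RRS1 and DDX18 had no entry. The palindrome CACGTG, which reads the same on both strands, occurred in at least 1 promoter of 14 of the 34 members (41.2%), against 8.77% of 27305 genes. The motif TATAAA, searched on both strands, occurred in 1 of 34 (2.94%) against 14.0%. The nuclear receptor core motif AGGTCA, also on both strands, occurred in 4 of 34 (11.8%) against 16.5%. Members' promoters were also richer in G and C, with a median of 63.8% against 58.7% over all promoters. The 150 bases from 120 before to 30 after the start are printed below, 5′ to 3′ on the gene's strand, to show where the E-box, in capitals, lies in FBL, NOP14, GNL3, GNL2 and UTP20, which are called in a comparison below. WDR12, also called, is shown as an example without it. Of the 14 called members with a promoter entry 6 have an E-box, the sixth being MYBBP1A, and 8 have none; of the 20 others 8 have one. A match is a description of the letters and not of a bound site.
FBL, chr19:39846350-39846499, minus strand: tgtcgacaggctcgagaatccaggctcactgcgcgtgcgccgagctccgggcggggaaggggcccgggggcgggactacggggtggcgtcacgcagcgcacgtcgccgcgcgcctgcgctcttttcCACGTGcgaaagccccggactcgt
NOP14, chr4:2963377-2963526, minus strand: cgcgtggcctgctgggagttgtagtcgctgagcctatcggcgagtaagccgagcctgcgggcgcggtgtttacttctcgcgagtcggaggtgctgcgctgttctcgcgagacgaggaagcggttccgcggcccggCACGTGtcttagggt
GNL3, chr3:52685912-52686061, plus strand: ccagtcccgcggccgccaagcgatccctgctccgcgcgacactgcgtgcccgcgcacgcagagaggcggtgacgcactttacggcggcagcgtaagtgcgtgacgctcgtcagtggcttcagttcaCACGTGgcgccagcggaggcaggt
GNL2, chr1:37595908-37596057, minus strand: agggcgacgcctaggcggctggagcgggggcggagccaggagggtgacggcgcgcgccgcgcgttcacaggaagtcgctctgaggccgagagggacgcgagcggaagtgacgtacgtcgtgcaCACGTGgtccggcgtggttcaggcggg
UTP20, chr12:101279985-101280134, plus strand: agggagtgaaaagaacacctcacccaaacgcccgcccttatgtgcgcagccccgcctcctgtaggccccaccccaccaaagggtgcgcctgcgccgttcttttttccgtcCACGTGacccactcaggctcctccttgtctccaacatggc
WDR12, chr2:202911644-202911793, minus strand: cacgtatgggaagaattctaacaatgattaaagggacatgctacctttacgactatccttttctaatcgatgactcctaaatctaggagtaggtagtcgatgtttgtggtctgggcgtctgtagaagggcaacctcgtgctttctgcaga

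In these 6 stretches the E-box of FBL, GNL3, GNL2 and NOP14 lay just past the start, beginning at bases 7, 7, 4 and 16 of the transcript, and that of UTP20 lay 10 bases before it. In ATRA against untreated cells, members with an E-box had a median log2 change of -0.17 and those without one -0.11. By the test used below 3 of 14 and 4 of 20 were lower, against 13.2% of all genes. In combined against DOX cells the medians were -0.18 and -0.07, with 3 of 14 and 2 of 20 lower, against 8.24% of all genes. In DOX against untreated cells they were 0.15 and 0.06. In combined against ATRA cells they were 0.15 and 0.15. No test was made of these differences between promoter classes.

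In untreated cells the members differed widely in level. Levels in this paragraph are counts per kilobase of exon, without TMM scaling. They were scaled so that their sum over genes with an exon length is equal in every library, and they are not CPM. On this scale the median member stood at 86.4. NPM1, a histone and ribosomal protein chaperone that shuttles out of the nucleolus, led with 1443 ± 137 (SD, n = 3). It was followed by FBL, the methyltransferase of box C/D snoRNPs, at 833 ± 32.3, NCL, the nucleolar RNA-binding protein nucleolin, at 734 ± 35.4, and the RNA helicase DDX21 at 489 ± 52.0. Each of these 4 stood apart from the next by more than their spread. Together NPM1, FBL, NCL and DDX21 made up 49.6% of the members' summed CPM, a share that is not corrected for length. Further down, 25 neighbouring pairs in the order did not differ beyond their spread. At the low end stood UTP15, a small-subunit processome protein, at 12.8 ± 0.315, and NOP2, an rRNA methyltransferase, at 1.29 ± 0.202. NOP2 had 300 counts over all 12 libraries. It shares 2550 exonic bases on the same strand with AC006064.6, which had 0 counts, so its level and changes are uncertain. RRN3 and NPM1 have pseudogenes, whose summed counts were 29.4% and 1.01% of those of the gene.

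The 40 members' summed CPM was 10358, 9994 and 9651 in untreated libraries, and 8570, 8852 and 8305 in ATRA libraries. It was 10098, 11500 and 10467 in DOX libraries, and 9047, 9963 and 9753 in combined libraries. The ATRA libraries were the lowest and did not overlap any other group. The sum is a description with no test, and NPM1, NCL, DDX21 and FBL weigh most in it.

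**Figure D1:**
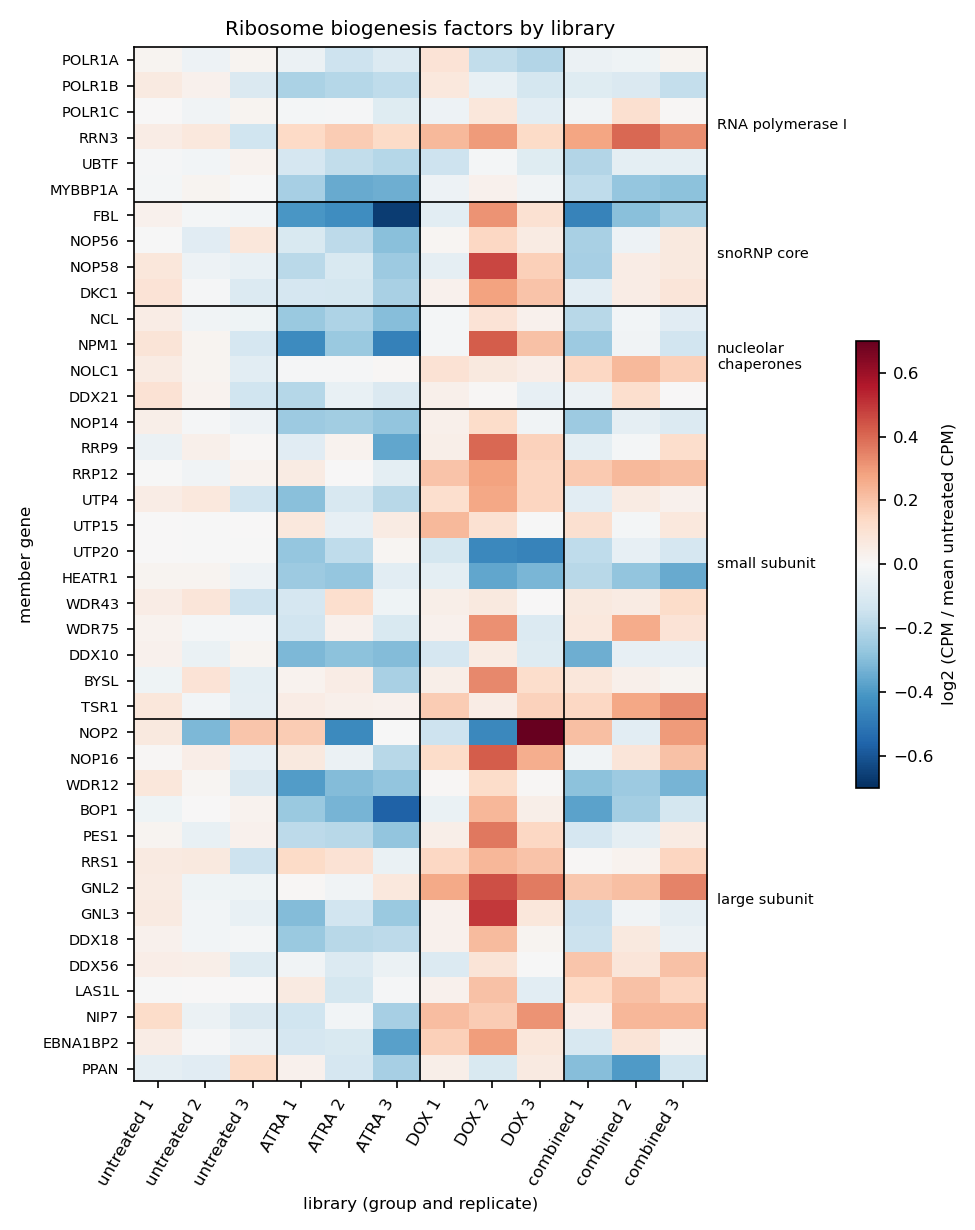
Colour shows the log2 ratio of CPM in each of the 12 libraries (columns, 3 per group) to the mean of the untreated libraries, for the 40 members (rows, grouped by role); the scale ends at the strongest colours, which NOP2 in the third DOX replicate exceeds. Blue dominates the ATRA columns, where 35 of 40 fitted changes were negative, and red is most frequent in the DOX columns, where 29 of 40 were positive.

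ATRA lowered 8 of the 40 members and raised none. The 8 came from every role: MYBBP1A of the polymerase I group, FBL of the snoRNP core, NPM1 and NCL of the chaperones, NOP14 and DDX10 of the small subunit, and WDR12 and BOP1 of the large subunit. A gene is called changed where edgeR's quasi-likelihood test gave a Benjamini-Hochberg adjusted p under 0.05 over all genes tested, and 13.2% of the 16104 genes were called lower and 15.7% higher in this comparison (28.9% in either direction). The members' 20.0% called lower was thus somewhat above the background, and their 0 called higher was below it. Without the third ATRA replicate, 3 of 40 members and 1574 of 16696 genes were called lower. Without the first untreated replicate it was 4 of 40 and 1840 of 16682. In both settings the members fell below the background, and without any other single library they stayed above it. The changes were small: the fitted log2 change was negative for 35 of 40, with a median of -0.14 against -0.01 over all genes tested. An unadjusted p under 0.05 by edgeR was found for 17 of the 40 members and for 6429 of the 16104 genes, a similar share. In 19 members every ATRA library lay below every untreated one, which 22.5% of all genes also showed, and in 1, RRN3, every ATRA library lay above, as in 22.8% of all genes. Myeloid markers moved in the same comparison: of 7 tested, ITGAX, CSF1R, ITGAM, CD33 and SPI1 were called higher and LYZ and MPO lower, with log2 changes from -0.77 for MPO to 2.71 for ITGAX. KRT18 was called lower at -0.55 ± 0.11, and the part of these changes in the members' levels was not tested.

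FBL fell most. Untreated cells held 617, 598 and 596 CPM and ATRA-treated cells 454, 447 and 380.5, a log2 change of -0.50 ± 0.10 (SE) with an adjusted p of 0.00086 by edgeR. The groups did not overlap, and ATRA left 70.8% of the untreated level, with a 95% interval from 61.0% to 82.1%. FBL lies on chromosome 19, bases 39834458 to 39846414 of GRCh38. The other snoRNP core proteins, NOP56 and NOP58 of the box C/D particle and the pseudouridine synthase DKC1, were also lower in every ATRA library than in any untreated one but did not pass the test.

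Among the chaperones, NPM1 measured 1962, 1862 and 1698 CPM in untreated and 1354, 1535 and 1327 in ATRA libraries. The log2 change was -0.39 ± 0.12, with an adjusted p of 0.0159 by edgeR, and no library overlapped. NCL measured 1755, 1669 and 1662 CPM in untreated and 1417, 1461 and 1379.5 in ATRA libraries, a log2 change of -0.26 ± 0.09 with an adjusted p of 0.0451 by edgeR. This was the weakest of the 8 calls, and it was lost without any single library of the 2 groups. DDX21 and NOLC1, a scaffold that binds snoRNPs, were not called, and the group means of NOLC1 were equal to the third digit (338 CPM in both).

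In the polymerase I group the called gene was MYBBP1A, a nucleolar MYB-binding protein that also takes part in rRNA processing. It measured 226, 230.2 and 227 CPM in untreated and 194, 178 and 179.9 in ATRA libraries, a log2 change of -0.31 ± 0.07 with an adjusted p of 0.0033 by edgeR. The untreated libraries were tightly grouped and all lay above the ATRA libraries. The polymerase subunits POLR1A, POLR1B and POLR1C and the ribosomal DNA binding factor UBTF did not pass the test. RRN3, the initiation factor that recruits the polymerase, went the other way, from 52.9 ± 4.23 CPM (SD, n = 3) to 58.6 ± 0.956, without passing it.

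Of the large-subunit factors, WDR12 and BOP1 passed the test and PES1, the third member of the PeBoW complex that these proteins form, did not. WDR12 measured 127, 122 and 112 CPM in untreated and 91.8, 97.4 and 99.5 in ATRA libraries, a log2 change of -0.32 ± 0.08 with an adjusted p of 0.00326 by edgeR. BOP1 measured 333, 341 and 346 CPM in untreated and 285, 272 and 230.3 in ATRA libraries, a log2 change of -0.38 ± 0.10 with an adjusted p of 0.00536 by edgeR. PES1 went from 209 ± 6.25 to 179 ± 6.27 CPM (SD, n = 3), and in all 3 genes the groups did not overlap. BOP1 was no longer called without the third ATRA replicate, in which it was lowest.

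Of the small-subunit factors, the RNA helicase DDX10 measured 59.7, 56.7 and 59.2 CPM in untreated and 47.0, 48.0 and 47.4 in ATRA libraries. Its log2 change was -0.30 ± 0.09, with an adjusted p of 0.0153 by edgeR. NOP14, a processome protein, fell by 0.26 ± 0.08 on the log2 scale, from 218 ± 5.94 to 182 ± 1.85 CPM (SD, n = 3), with an adjusted p of 0.016 by edgeR. Both were separated completely between the groups. NOP14 shares 605 exonic bases with the antisense gene NOP14-AS1, and without a stated strand setting their reads cannot be told apart. The calls of NPM1, NOP14 and DDX10 were each lost without the first untreated, the first ATRA or the third ATRA replicate, and leaving out single libraries gave 3 to 9 members called lower in all.

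**Figure D2:**
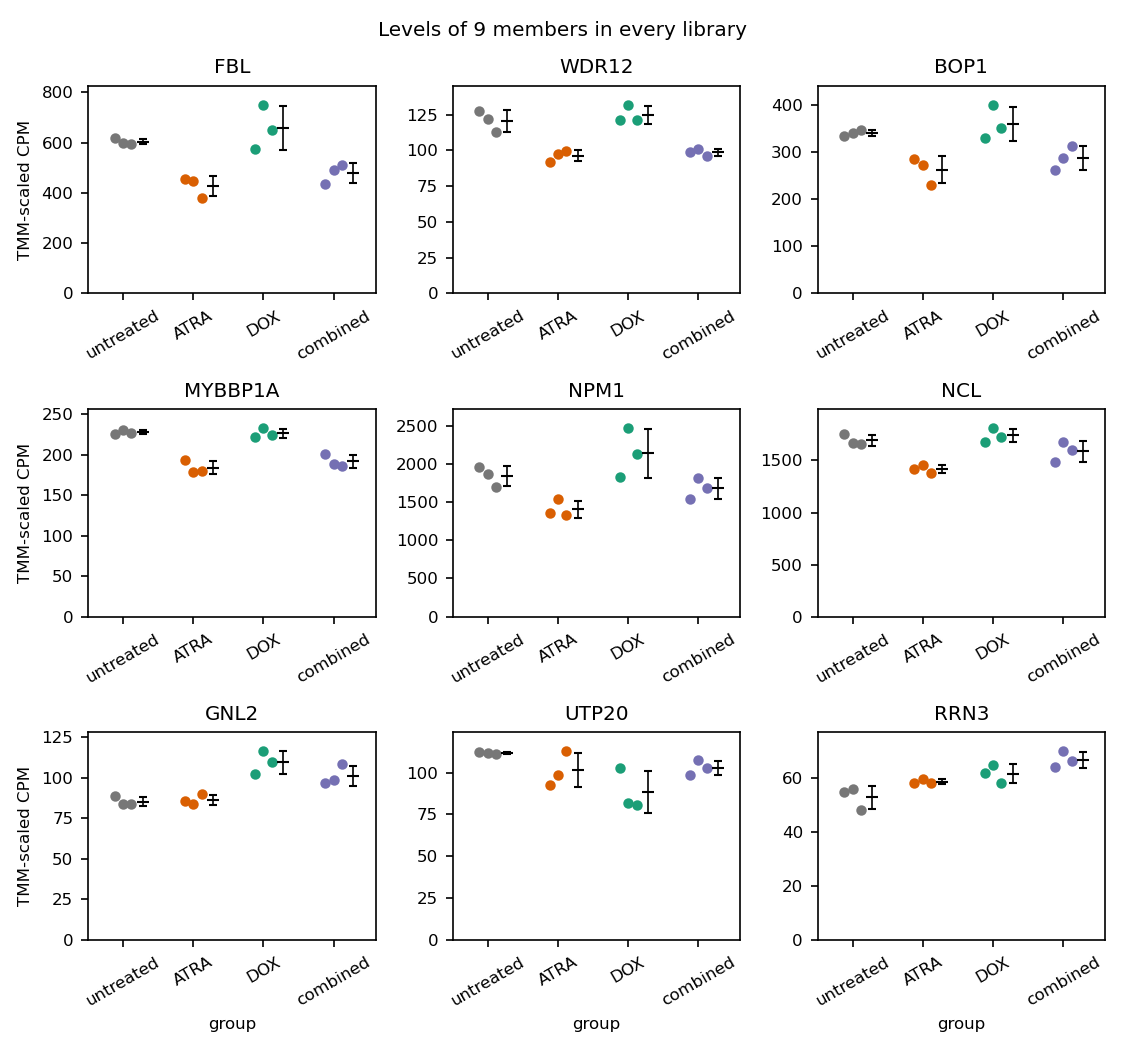
Each panel plots TMM-scaled CPM from 0 upward (y axis) by group (x axis) for 1 of 9 members; points are the 3 libraries of a group and the bar beside them is the mean with its SD. FBL, WDR12, BOP1, MYBBP1A and NPM1 sit lower with ATRA both without and with DOX, while GNL2 is higher in the DOX libraries (103 to 116 CPM) than in the untreated ones (83.6 to 88.6).

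With the shRNA induced, ATRA lowered 6 members and again raised none. FBL, NPM1, BOP1, WDR12 and MYBBP1A were called here as they were without DOX. The other was GNL3, a nucleolar GTPase also called nucleostemin, which had a log2 change of -0.23 ± 0.10 without DOX and did not pass there. In combined against DOX cells 8.24% of all genes were called lower and 10.7% higher (19% in either direction), so that the 15.0% of members called lower stood above the background and the 0 called higher below it. Without the second DOX, first combined or second combined replicate, 2 of 40 members were called lower. Of all genes 896 of 16614, 1119 of 16590 and 927 of 16611 were then lower, so the members did not exceed the background. They stayed above it without any other single library. The fitted change was negative for 28 of 40, with a median of -0.12. Of the 40 members 13 had an unadjusted p under 0.05 by edgeR, as had 4952 of the 16104 genes, a similar share. In 10 members the combined libraries all lay below the DOX libraries, which 13.5% of all genes also showed, and in 1, NOLC1, they all lay above, as in 16.7%. Of the 7 tested myeloid markers ITGAX, CSF1R, ITGAM and CD33 were called higher and LYZ lower, with log2 changes from -1.23 for LYZ to 2.43 for ITGAX, and NKG7 and KRT18 were called lower at -0.74 ± 0.16 and -0.55 ± 0.11.

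FBL measured 572, 749.8 and 650.4 CPM in DOX and 436, 493 and 509.7 in combined libraries, a log2 change of -0.46 ± 0.10 with an adjusted p of 0.00301 by edgeR. WDR12 measured 121, 132 and 121 CPM in DOX and 98.6, 101 and 96.0 in combined libraries, a log2 change of -0.34 ± 0.08 with an adjusted p of 0.00345 by edgeR. In both genes all combined libraries lay below all DOX libraries, and the combined group kept 72.9% and 78.8% of the DOX level. NPM1 measured 1821, 2467 and 2122 CPM in DOX and 1545, 1811 and 1679 in combined libraries, a log2 change of -0.35 ± 0.12 with an adjusted p of 0.0406 by edgeR. The highest combined and the lowest DOX library of NPM1 were only just apart.

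BOP1 measured 329, 400.1 and 350.2 CPM in DOX and 262, 288 and 313 in combined libraries, a log2 change of -0.33 ± 0.10 with an adjusted p of 0.0208 by edgeR. MYBBP1A measured 222, 233 and 224 CPM in DOX and 201, 189 and 186 in combined libraries, a log2 change of -0.24 ± 0.07 with an adjusted p of 0.0298 by edgeR. Neither gene overlapped between the groups. GNL3 measured 202, 279 and 208 CPM in DOX and 177, 194 and 189 in combined libraries, a log2 change of -0.31 ± 0.10 with an adjusted p of 0.0371 by edgeR. The second DOX replicate stood far above the others of its group in GNL3, and without it the change was -0.13 with an adjusted p of 0.396. Leaving out that library also ended the calls of NPM1, BOP1 and MYBBP1A, as did leaving out the first or the second combined replicate. Over the 16 other settings the call was lost in 10 for MYBBP1A, 8 for NPM1, 6 for GNL3 and 3 for BOP1.

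The ATRA effects without and with DOX share no library. Across the 40 members, which share libraries and scaling within each comparison, Pearson's r between the fitted changes was 0.71 and Spearman's rho 0.69. The change was negative in both for 25 members and positive in both for 2. The 5 genes called in both make up 62.5% of the 8 called without DOX and 83.3% of the 6 called with it. Neither the overlap nor the correlations were computed over all genes, so this agreement cannot be read as particular to the members. FBL and WDR12 were the members that kept both calls under all 16 other settings run for each comparison.

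Whether the ATRA effect itself differed with the shRNA induced was tested as an interaction. By edgeR 0 of the 40 members passed, and DESeq2 also called 0. Over all genes, 0.0435% were called higher and 0.224% lower (0.267% in either direction). An unadjusted p under 0.05 by edgeR was found for 1 of the 40 members, against 1735 of the 16104 genes. For FBL the interaction was 0.04 on the log2 scale, with a 95% interval from -0.26 to 0.34, and for WDR12 it was -0.02, from -0.25 to 0.21. These intervals bound the interaction with 3 libraries a group, and no detection limit was computed for the members. The smallest adjusted p was that of UTP20, a scaffold of the small-subunit processome, at 0.353 by edgeR with an interaction of 0.35 ± 0.13.

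**Figure D3:**
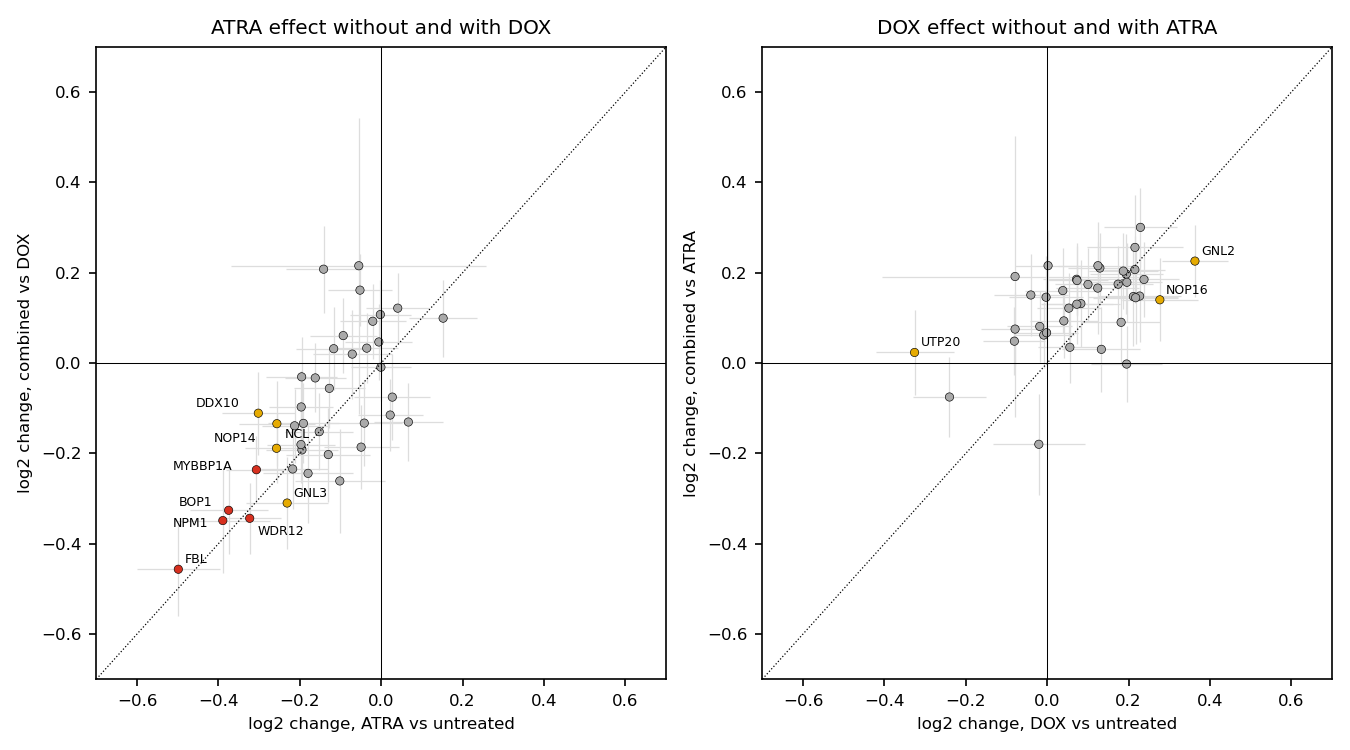
The left panel plots each member's log2 change in ATRA against untreated cells (x) and in combined against DOX cells (y); the right panel plots DOX against untreated cells (x) and combined against ATRA cells (y). Grey lines are standard errors, the dotted line marks equality, red points were called in both comparisons and yellow points in 1; the 5 red points, FBL, NPM1, BOP1, WDR12 and MYBBP1A, all lie at the lower left.

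DOX without ATRA moved few members past the test. GNL2, a nucleolar GTPase of large-subunit maturation, and NOP16, a large-subunit assembly factor, rose, and UTP20 fell. Over all genes 8.08% were called higher and 7.1% lower (15.2% in either direction), so that the members' 5.00% and 2.50% were below the background. The fitted change was positive for 29 of 40, with a median of 0.09 against 0.01 over all genes tested. Of the 40 members 13 had an unadjusted p under 0.05 by edgeR, as had 5162 of the 16104 genes, a similar share. In 10 members all DOX libraries lay above all untreated ones, which 17% of all genes also showed, and in HEATR1 and UTP20 they all lay below, which 13.9% showed.

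GNL2 measured 88.6, 83.6 and 83.6 CPM in untreated and 103, 116 and 109.8 in DOX libraries, a log2 change of 0.36 ± 0.08 with an adjusted p of 0.00671 by edgeR. NOP16 measured 131, 135 and 125 CPM in untreated and 142, 175 and 156 in DOX libraries, a log2 change of 0.28 ± 0.09 with an adjusted p of 0.0487 by edgeR. The DOX libraries of both genes lay above all untreated ones, and the second DOX replicate was highest. UTP20 measured 112, 112 and 111 CPM in untreated and 103, 81.7 and 80.6 in DOX libraries, a log2 change of -0.33 ± 0.10 with an adjusted p of 0.0279 by edgeR. The untreated libraries of UTP20 hardly differed, while the first DOX replicate stood nearer to them than to the other DOX libraries. The NOP16 call was lost in 14 of 16 other settings, among them RLE size factors, library size alone and the replicate block, and the UTP20 call in 9 of 16.

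The mitochondrial ribosomal RNA share moved with this comparison, lowest in the second DOX replicate (1.02%) and highest in the third untreated one (4.60%). With that share as a term in the model, 0 members were called higher and 0 lower, the median log2 change was -0.01, and GNL2 stood at 0.20 with an adjusted p of 0.646 by edgeR. Without the second DOX replicate 0 were called higher and 0 lower, with GNL2 at an adjusted p of 0.0509, and without the first, 8 were called higher and 2 lower. MPO and SPI1 were called higher and ITGAM lower in the same comparison, and KRT18 higher at 0.43 ± 0.11. The part of the mitochondrial share in the result cannot be told apart from DOX by these libraries, since all DOX libraries lay below all untreated ones.

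**Figure D4:**
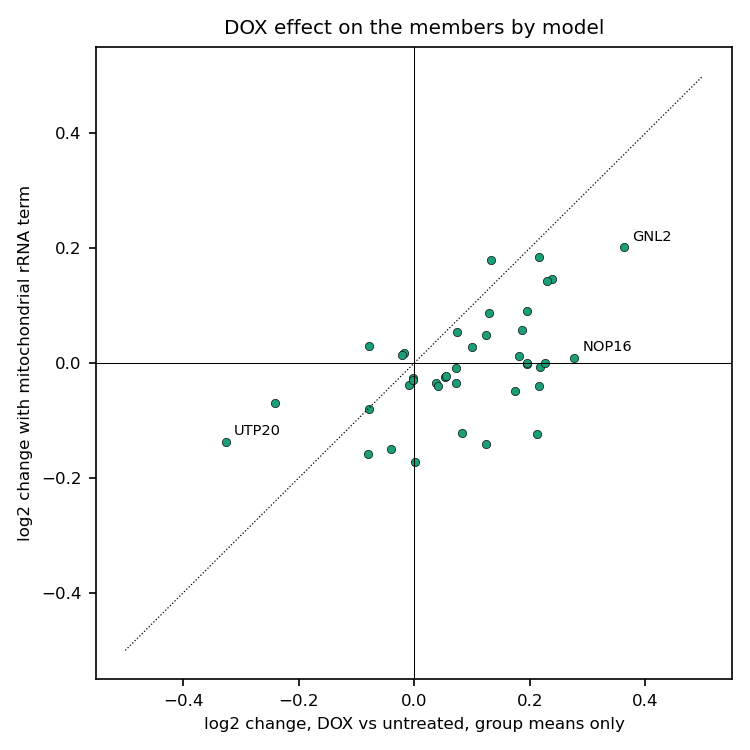
Each point is a member, with its log2 change in DOX against untreated cells from the model of group means (x) and from the model that also holds the mitochondrial ribosomal RNA share (y); the dotted line marks equality and the called genes are named. GNL2 moves from 0.36 to 0.20, NOP16 from 0.28 to 0.01 and UTP20 from -0.33 to -0.14.

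In cells given ATRA, inducing the shRNA called no member by edgeR, but most leaned upward. Of the 40 fitted changes in combined against ATRA cells 37 were positive, with a median of 0.15, while over all genes tested the changes centred on 0. Among the markers MPO and KRT18 were called higher, at 1.13 ± 0.14 and 0.43 ± 0.12, and ITGAM and CSF1R lower. By edgeR 0 members were called in either direction, and DESeq2 called 1, NIP7. An unadjusted p under 0.05 by edgeR was found for 13 of the 40 members, against 3053 of the 16104 genes. The background was low, at 1.89% of genes called higher and 2.54% lower (4.43% in either direction). In 18 members (45.0%) all combined libraries lay above all ATRA libraries, against 13.1% of all genes, and in 0 they all lay below, against 13.4%.

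NIP7, which acts in the maturation of the large subunit, came nearest. It measured 73.1, 79.4 and 68.5 CPM in ATRA and 83.3, 94.6 and 94.5 in combined libraries, a log2 change of 0.30 ± 0.09 with an adjusted p of 0.055 by edgeR. The combined libraries all lay above the ATRA libraries. DESeq2, a floor of 2 CPM, a fit of these 2 groups and counts thinned to equal depth each put NIP7 past the threshold. NIP7 shares 957 exonic bases with COG8 on the opposite strand. GNL2 followed at 0.23 ± 0.08 with an adjusted p of 0.117, RRP12 at 0.21 ± 0.07 with 0.129 and DDX56 at 0.22 ± 0.08 with 0.133, all by edgeR. NPM1, at 0.26 ± 0.12, had the second largest change, and its libraries did not overlap, but its adjusted p was 0.24.

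The 3 negative changes were those of PPAN at -0.18 ± 0.11, HEATR1 at -0.08 ± 0.09 and RRS1, which was close to 0, none of them called. All 4 chaperones and scaffolds had combined libraries wholly above the ATRA libraries, as did 3 of 6 polymerase I factors, 1 of 4 snoRNP proteins, 4 of 12 small-subunit factors and 6 of 14 large-subunit factors. FBL and WDR12, the members ATRA lowered most stably, changed by 0.17 ± 0.10 and 0.03 ± 0.08. With the mitochondrial ribosomal RNA term the median was 0.09. The DOX effects without and with ATRA share no library, and across the 40 members Pearson's r was 0.54 and Spearman's rho 0.51, with 28 positive in both. These values too were not computed over all genes.

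**Figure D5:**
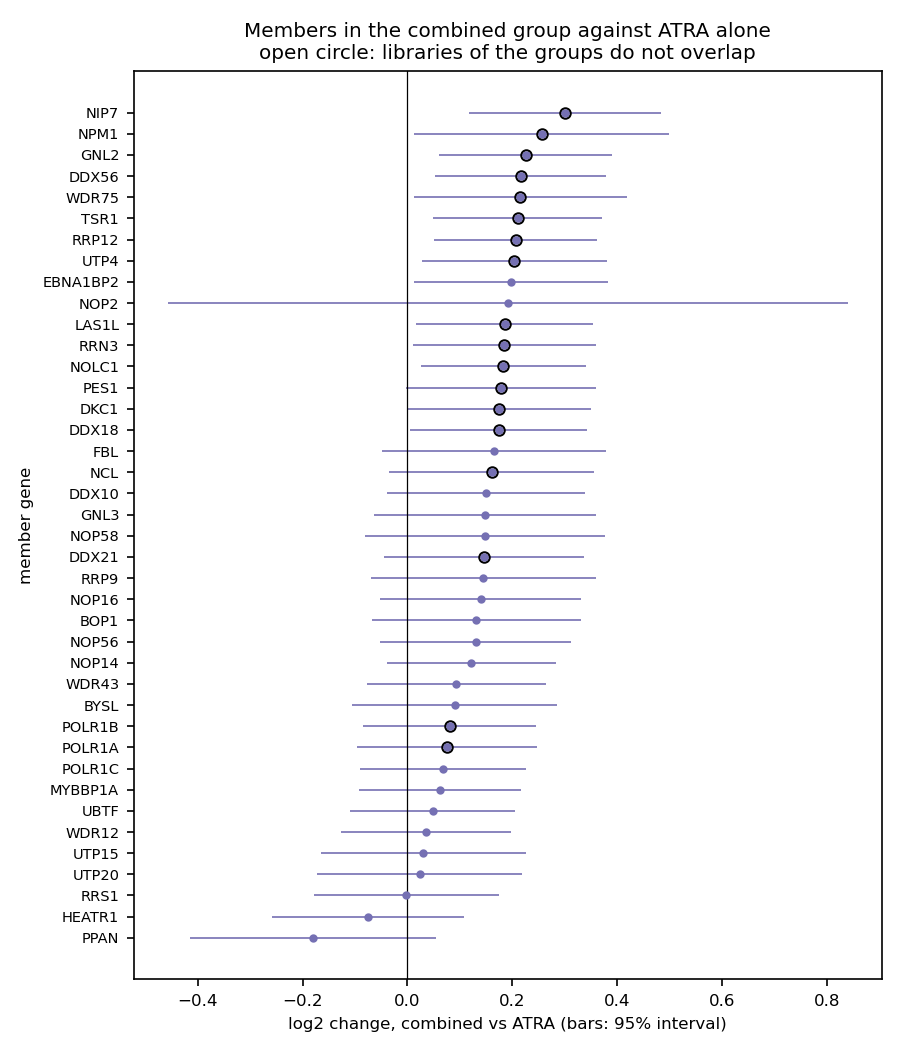
Members are ranked by the log2 change in combined against ATRA cells (x axis), with 95% intervals as bars; an open circle marks the 18 members whose combined libraries all lay above the ATRA libraries. Points lie to the right of 0 for 37 of 40, and the interval of NIP7, at the top, runs from 0.12 to 0.48.

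The combined and untreated groups, which differ by both agents and share libraries with the comparisons above, differed in 8 members, 4 in each direction. RRN3, TSR1, a GTPase-like factor of late small-subunit maturation, GNL2 and RRP12, an export factor, rose. FBL, WDR12, MYBBP1A and HEATR1, a processome protein needed for ribosomal DNA transcription, fell. Of all genes 19.6% were called higher and 18.5% lower (38% in either direction), and the members' 10.0% each way was below both. The median log2 change was 0.00.

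RRN3 measured 54.9, 55.7 and 48.0 CPM in untreated and 64.0, 69.8 and 66.1 in combined libraries, a log2 change of 0.34 ± 0.08 with an adjusted p of 0.00338 by edgeR. TSR1 measured 176, 165 and 159.5 CPM in untreated and 185, 201 and 209.8 in combined libraries, a log2 change of 0.25 ± 0.08 with an adjusted p of 0.0147 by edgeR. All combined libraries lay above all untreated ones for both genes. TSR1 shares 1146 exonic bases with SRR on the opposite strand. For RRN3 the ATRA and DOX group means, 58.6 ± 0.956 and 61.6 ± 3.50 CPM (SD, n = 3), lay between those of the untreated and combined groups, 52.9 ± 4.23 and 66.7 ± 2.96. GNL2 rose by 0.25 ± 0.08 with an adjusted p of 0.0176, and RRP12 by 0.21 ± 0.07 with 0.034, by edgeR.

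HEATR1 measured 228, 228 and 220.0 CPM in untreated and 197, 186 and 177 in combined libraries, a log2 change of -0.27 ± 0.09 with an adjusted p of 0.0193 by edgeR. No library overlapped, but HEATR1 shares 2095 exonic bases with LGALS8 on the opposite strand. FBL changed by -0.33 ± 0.10 with an adjusted p of 0.0146, WDR12 by -0.29 ± 0.08 with 0.00601 and MYBBP1A by -0.24 ± 0.07 with 0.0126, by edgeR. FBL thus stood at 604 ± 11.4 CPM in untreated and 479.5 ± 38.4 in combined cells (SD, n = 3). With the mitochondrial ribosomal RNA term 0 members were called higher, HEATR1 stood at -0.14 with an adjusted p of 0.389 and was not called, and the median was -0.09. Over the 16 other settings the call was lost in 10 for RRP12, in 6 each for TSR1 and HEATR1, and at equal depth TSR1 stood at 0.15 with an adjusted p of 0.232.

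The rest of the pathway was followed in 139 further ribosome biogenesis genes that were tested. ATRA lowered 28 (20.1%, against 13.2% of all genes) and raised 5 (3.60%, against 15.7%), with a median log2 change of -0.11. With DOX present it lowered 26 (18.7%, against 8.24%) and raised 2 (1.44%, against 10.7%), with a median of -0.11. TCOF1, the treacle scaffold of the nucleolus and the lowest of them without DOX, stood at -0.55 ± 0.08 without DOX (adjusted p 1.42e-05 by edgeR) and -0.34 ± 0.08 with it (0.00382). NLE1, a factor of large-subunit maturation, stood at -0.50 ± 0.10 and -0.47 ± 0.10, with adjusted p of 0.00047 and 0.00146 by edgeR. NOC4L, of the small subunit, stood at -0.48 ± 0.10 and -0.38 ± 0.10. Against this direction, BUD23, an rRNA methyltransferase of the small subunit, rose by 0.49 ± 0.09 and 0.40 ± 0.10, and RRP7A, of the small subunit, by 0.46 ± 0.09 and 0.28 ± 0.09.

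DOX without ATRA raised 25 of these 139 genes (18.0%, against 8.08% of all genes) and lowered 5 (3.60%, against 7.1%), with a median of 0.13. Over all genes, calls of this comparison fell from 2446 to 77 with the mitochondrial ribosomal RNA term and to 659 without DOX replicate 2. Without DOX replicate 1 they rose to 4326. The 139 genes were not counted under these settings. LTV1, of small-subunit maturation, stood at 0.53 ± 0.10 with an adjusted p of 0.00334, and EIF6, which keeps the subunits apart, at 0.50 ± 0.11 with 0.00578, by edgeR. MDN1, the giant AAA ATPase of large-subunit remodelling, stood at -0.58 ± 0.14 with 0.012, though its libraries overlapped. TBP, which serves all 3 nuclear polymerases, stood at -0.51 ± 0.10 with 0.00435. In ATRA-treated cells DOX called TBP alone of the 139, at -0.56 ± 0.10 with an adjusted p of 0.00187 by edgeR. The interaction called 0 of the 139.

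MYC measured 568, 579.8 and 492 CPM in untreated and 387, 385 and 348 in ATRA libraries, a log2 change of -0.55 ± 0.09 with an adjusted p of 0.00014 by edgeR. It measured 536, 647 and 553 CPM in DOX and 386, 348 and 369.7 in combined libraries, a log2 change of -0.66 ± 0.10 with an adjusted p of 2.97e-05 by edgeR. Both ATRA groups lay wholly below their controls, and DOX without ATRA left MYC at 0.08 and with ATRA at -0.02, neither called. Its partner MAX had group means from 41.1 to 44.7 CPM. The part of MYC in the members' levels was not tested.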

How the data were processed

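Total RNA of MOLM14 cells was read as paired ends on a NovaSeq instrument, per the labels' protocols. The authors deposited raw counts for each gene in each library. The submitters' processing notes name STAR, HTSeq, FastQC and the build GRCh38. Versions, annotation and strand setting are not given in the sources used here, so reads of overlapping genes, antisense genes and pseudogene copies may be shared or lost. Symbols came from a gene name table that matched 61369 of 61487 identifiers. Coordinates and exon lengths came from GENCODE release 29, which held 58312, and promoters from RefSeq.

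Samples were grouped by the labels, 3 libraries a group. In R 4.3.3, edgeR 4.0.16 kept 16104 genes by filterByExpr and scaled libraries by TMM. Each comparison and the interaction were quasi-likelihood tests in 1 model with 4 group means, with p-values adjusted by Benjamini-Hochberg across those genes and a threshold of 0.05. Standard errors are those implied by the F test. Each p-value weighs a difference between groups against the spread between libraries, pooled over the 4 groups and moderated across genes. The steps were tested on simulated data. Alternatives were DESeq2 1.42.0, other scalings and filters, fewer groups, a replicate block, counts thinned to equal depth, a mitochondrial ribosomal RNA term and left-out libraries.

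The members and gene lists were chosen with earlier results of these data known. Full values are given for up to 5 called members with the largest fall or rise per comparison and for the member with the smallest adjusted p in a role. Of other lists, up to 4 genes with the smallest adjusted p are named, and MYC, MAX and NRIP1 always.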

Additional observations from a re-analysis of the deposited data

How the results depend on the processing

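The 25 calls of members were each recomputed under 16 other settings: of 400 values 285 stayed on their side of the threshold in the same direction, 115 fell short of it, and 0 reversed. ATRA lowered 4 members with no filter on low counts, 13 in a fit of the groups compared and 15 with the mitochondrial ribosomal RNA term. With DOX present it lowered 3 in a fit of the groups compared. For DOX against untreated cells 1 member was higher with RLE size factors, library size alone, no filter (where 0 were lower), a mean of at least 2 CPM, a fit of the groups compared or equal depth; 0 were higher and 0 lower with the mitochondrial term, and likewise without untreated replicate 3 and DOX replicate 3 together. For combined against ATRA cells 1 was higher, NIP7, with DESeq2, a mean of at least 2 CPM, a fit of the groups compared or equal depth. For combined against untreated cells 1 was lower with no filter, and 2, 0 and 1 were higher at equal depth, with the mitochondrial term and without that pair of replicates. Leaving out single libraries gave 3 to 9 lower for ATRA against untreated cells, 2 to 9 lower and 0 to 1 higher for combined against DOX, 0 to 8 higher and 0 to 2 lower for DOX against untreated, 0 to 1 higher for combined against ATRA, 1 to 4 higher and 2 to 4 lower for combined against untreated, and 0 to 1 higher for the interaction. The calls of the interaction (UTP20) and of a higher member in combined against DOX cells appeared only without DOX replicate 1, and that of NIP7 without combined replicate 1. The cause was not tested, beyond fewer counts at equal depth.

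The labels do not say what a shared replicate number means. Pairing by number was not seen: of 18 same-numbered pairs 4 had a correlation of deviations over 0.1 (range -0.24 to 0.27). Of 12 libraries 3 correlated best with their own number. Deviations from means of 3 libraries cannot show that the libraries were unpaired. With the replicate block ATRA lowered 7 members without DOX (NCL lost) and 6 with it, and DOX raised 1 (NOP16 lost) and lowered 1; 3 were higher (RRP12 lost) and 4 lower in combined against untreated cells.

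Over all genes, equal depth cut the calls from 4652 to 2687 for ATRA, 3054 to 1928 for combined against DOX, 2446 to 1158 for DOX, 713 to 365 for combined against ATRA and 6123 to 3331 for combined against untreated. The calls for DOX were 1573 in a fit of its groups, 77 with the mitochondrial term and 169 without untreated replicate 3 and DOX replicate 3; those of combined against untreated were 3363 with that term. The interaction called 43 genes, against 116 by DESeq2, 189 with no filter, 24 by library size alone, 17 at equal depth and 9 without that pair. Leaving out single libraries gave 10 (without ATRA replicate 3) to 747 (without DOX replicate 1) for the interaction, with 129 without combined replicate 1. For DOX it gave 659 (without DOX replicate 2), 731 (without untreated replicate 3) and 1462 (without DOX replicate 3) up to 4326 (without DOX replicate 1), and for combined against ATRA 264 (without ATRA replicate 3) to 907 (without combined replicate 1).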

Other observations

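Genes that work beside ribosome production in growing cells moved with ATRA as well. Of 15 genes of purine and pyrimidine synthesis, ATRA lowered 8 and raised 0 without DOX, and lowered 4 and raised 0 with it, against 13.2% and 8.24% of all genes called lower. PAICS, which catalyses 2 steps of purine synthesis, measured 417.5, 373 and 338 CPM in untreated and 258, 272 and 263 in ATRA libraries, and changed by -0.51 ± 0.10 without DOX and -0.45 ± 0.10 with it (adjusted p 0.000525 and 0.00246 by edgeR). Its groups did not overlap in either setting. Of 25 cell cycle genes ATRA lowered 12 without DOX and 5 with it, and raised 0 in both. E2F2, a transcription factor of S-phase entry, fell from 17.6, 16.5 and 17.5 CPM to 9.15, 9.99 and 9.64, a log2 change of -0.85 ± 0.12 with an adjusted p of 1.55e-05 by edgeR. DOX without ATRA called 1 of the 25, MKI67, at -0.63 ± 0.12 with an adjusted p of 0.00256 by edgeR, against 15.2% of all genes called.

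CDKN1A, the cell cycle inhibitor p21, rose with either agent and was highest with both. Untreated libraries held 257, 234 and 237 CPM and ATRA libraries 404, 389.8 and 359.6. DOX libraries held 435, 395 and 466 CPM and combined libraries 511, 494 and 549. The log2 change was 0.66 ± 0.09 for ATRA and 0.83 ± 0.09 for DOX against untreated cells, with adjusted p of 4.93e-06 and 2.68e-05 by edgeR. MDM4, an inhibitor of p53, fell by 0.34 ± 0.13 and 0.41 ± 0.13 in the same comparisons, with adjusted p of 0.0487 and 0.0394 by edgeR. Both genes come from a list on the 5S ribonucleoprotein and the p53 checkpoint. Of its 6 tested genes 1 was higher, 1 lower and 4 not called in each of these comparisons. Over all genes 15.7% were higher and 13.2% lower with ATRA, and 8.08% and 7.1% with DOX. The DOX calls of CDKN1A, MDM4 and MKI67 were not followed under the other settings. With the mitochondrial ribosomal RNA term the calls of that comparison over all genes fell from 2446 to 77.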
